A study of Homo sapiens with 6 samples.

Results

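Noncanonical NF-κB signalling was described here through 7 genes: the adaptors TRAF1, TRAF2 and TRAF3, the ubiquitin ligases BIRC2 (cIAP1) and BIRC3 (cIAP2), the kinase MAP3K14 (NIK) and the kinase CHUK (IKKα). They were chosen by gene symbol, and all 7 of them are among the 29122 genes of the deposited count table and passed the filter on low counts. The libraries are polyadenylated RNA of A549, a human lung carcinoma epithelial line, in 3 BCLAF1-depleted and 3 control libraries. BCLAF1-depleted cells carried a lentiviral short hairpin RNA, stably transduced, against BCLAF1, a nuclear factor with roles in transcription and splicing. Control cells carried, by the same route, a hairpin against firefly luciferase, which human cells lack. The treatment protocol gives this hairpin design, while the sample names begin with si, and the protocol was followed here. The labels do not say how many hairpins or clones were used, nor that replicates came from separate cultures, so a p-value reflects library-to-library spread that may be purely technical. By its title, the series belongs to work on MED23, a Mediator subunit, in senescence and autophagy.

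In resting cells TRAF3 binds newly made NIK, and TRAF2 brings the cIAP ligases, which mark NIK for degradation. A subset of TNF family receptors draws TRAF2, TRAF3 and the cIAPs away, NIK protein builds up, and NIK activates IKKα. IKKα then phosphorylates the NF-κB2 precursor p100, which is processed to p52, the partner of RelB. TRAF1 and BIRC3 are known as target genes of NF-κB, and BIRC3 and BIRC2 are neighbouring paralogues. RNA levels do not measure NIK protein, ligase activity or p100 processing.

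Because kappa-B sites are the DNA elements that NF-κB dimers bind, the windows from 250 bases before to 50 bases after each transcript start (RefSeq, GRCh38.p14) were searched on both strands for the kappa-B consensus of 10 bases. All 7 genes matched an entry by symbol, with 10 windows in all, and 2 of these held a match, against 11.3% of all 35116 windows. The windows with a match belonged to BIRC3 and TRAF3, and that of BIRC2 is shown beside them as the paralogue next door. Sequences run 5′ to 3′ on the plus strand, and capitals mark the bases that match the consensus.

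BIRC3: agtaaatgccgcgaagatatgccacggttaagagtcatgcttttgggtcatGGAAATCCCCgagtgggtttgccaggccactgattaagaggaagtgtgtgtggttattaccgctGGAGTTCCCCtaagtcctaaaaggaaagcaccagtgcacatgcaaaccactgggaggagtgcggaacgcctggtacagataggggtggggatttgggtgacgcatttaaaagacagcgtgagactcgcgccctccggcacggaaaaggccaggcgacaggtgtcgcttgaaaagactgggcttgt

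BIRC2: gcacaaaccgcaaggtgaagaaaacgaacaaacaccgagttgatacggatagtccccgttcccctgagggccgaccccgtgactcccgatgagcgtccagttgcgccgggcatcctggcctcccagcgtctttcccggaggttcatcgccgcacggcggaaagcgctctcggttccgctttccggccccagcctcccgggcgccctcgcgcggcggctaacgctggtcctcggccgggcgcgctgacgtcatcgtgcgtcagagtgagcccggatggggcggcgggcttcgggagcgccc

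TRAF3: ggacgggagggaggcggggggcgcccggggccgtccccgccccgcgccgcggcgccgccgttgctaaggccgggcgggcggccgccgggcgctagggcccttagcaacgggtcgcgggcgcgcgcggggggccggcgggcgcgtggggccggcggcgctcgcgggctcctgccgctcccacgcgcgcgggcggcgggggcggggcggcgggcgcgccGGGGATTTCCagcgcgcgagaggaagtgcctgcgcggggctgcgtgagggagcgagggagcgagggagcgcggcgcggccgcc

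The BIRC3 window is chr11:102317234-102317533, and its matches began 199 and 135 bases upstream of the start (positions -199 and -135), both on the reverse strand. The BIRC2 window is chr11:102346964-102347263, and neither it nor the second BIRC2 window held a match. The TRAF3 window is chr14:102777199-102777498, with its match at position -33. None of the 3 TRAF1 windows, nor those of TRAF2, MAP3K14 and CHUK, held these letters. A match describes letters only and was not measured as a bound site.

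Values are given for replicates 1 to 3 in that order, in CPM, counts scaled by TMM to a common library size. The targeted gene, BCLAF1, was at 39.0, 35.7 and 53.1 CPM in BCLAF1-depleted libraries, against 211.1, 199.0 and 203.2 CPM in controls (log2 fold change -2.26 ± 0.16, edgeR adjusted p = 2.31e-05). Library totals ranged from 33409158 to 40820922 counts in BCLAF1-depleted cells and from 41019185 to 43928927 in controls. The TMM factors were 1.05, 0.94 and 0.80 in BCLAF1-depleted libraries and 1.08, 1.08 and 1.10 in controls. With this scaling, a floor of 3 counts, which covers counting error alone, lay at 0.0624 to 0.0925 CPM. BCLAF1-depleted replicate 1 lay at 19.4 on the first principal component of log2 CPM and replicates 2 and 3 at 54.2 and 53.4, with the controls between -43.6 and -40.9. On the second component BCLAF1-depleted replicate 3 lay apart, at 35.3, against -23.7 and -20.0 for replicates 1 and 2. Fold changes also moved with exon length: their median log2 value was 0.35 in the shortest 3155 genes and -0.19 in the longest 3155. Epithelial markers summed to 32076 to 39109 CPM in BCLAF1-depleted libraries and 30213 to 32006 CPM in controls, and fibroblast markers to 14.8 to 16.8 CPM in BCLAF1-depleted libraries and 22.6 to 25.3 CPM in controls. Of the endothelial markers 3 of 5, of the fibroblast markers 2 of 5, and of the epithelial markers 1 of 5 were under 1 CPM in every library. The part of depth, length and these markers in the results was not tested, except where a value is given.

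The 7 genes did not move together between BCLAF1-depleted and control libraries. BIRC3, TRAF1 and MAP3K14 rose, CHUK fell, and TRAF2, TRAF3 and BIRC2 did not pass the threshold, an adjusted p under 0.05 by edgeR's quasi-likelihood test over 15907 genes. Of all tested genes 35.8% passed it (17.8% higher and 18% lower), so 4 of 7 called genes (57.1%) is to be read against that share, as are 3 higher and 1 lower against theirs. The same 4 genes had no overlap in CPM between the groups, as did 51.9% of all tested genes (25.3% higher and 26.6% lower). The median log2 fold change, BCLAF1-depleted over control, was 0.16 over the 7 genes and 0.02 over all tested genes. In bulk RNA, fewer cells with a transcript and less of it per cell cannot be told apart.

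**Figure D1:**
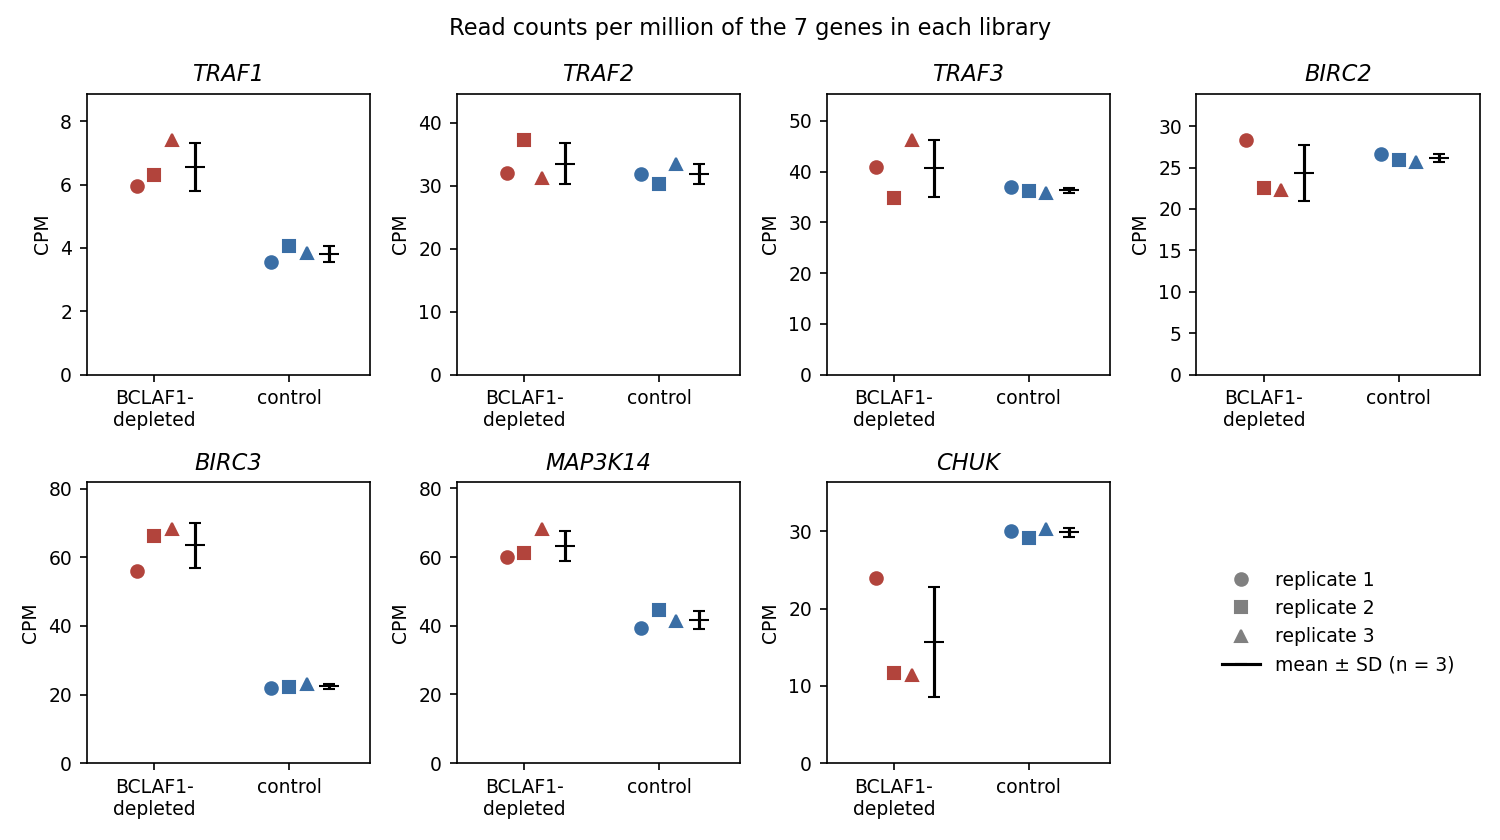
CPM of each of the 7 genes (y axis, from 0) in the 3 BCLAF1-depleted and 3 control libraries, with a symbol per replicate and the mean ± SD (n = 3) beside them. BIRC3, TRAF1 and MAP3K14 are higher and CHUK lower in every BCLAF1-depleted library, while the groups overlap for TRAF2, TRAF3 and BIRC2.

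Among the ligases, BIRC3 was higher in all 3 BCLAF1-depleted libraries. Its change on counts was the largest of the 7 genes, whereas on log2(FPKM + 1) CHUK moved further (-1.07, against 0.99 for BIRC3), as it did on log2(FPKM + 0.1) (-1.28, against 1.18). It stood at 56.1, 66.1 and 68.3 CPM in BCLAF1-depleted libraries, against 21.8, 22.2 and 23.2 CPM in controls. Every BCLAF1-depleted library was above every control, and replicate 1 was the lowest of the 3. The means were 63.5 ± 6.50 CPM in BCLAF1-depleted and 22.4 ± 0.698 CPM in control libraries (SD, n = 3 each), a log2 fold change of 1.50 ± 0.12 (SE, edgeR adjusted p = 4.445e-05) or 2.84-fold. Of all genes tested, 2.16% had a fold change as high or higher. BIRC3 (ENSG00000023445.12) occupies chromosome 11, 102317450 to 102339403, plus strand, in GRCh38 by GENCODE 29.

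BIRC2, the paralogue with the same ligase role in the NIK complex, starts 7808 bases beyond the end of BIRC3 (ENSG00000110330.7, chromosome 11, 102347211 to 102378670, plus strand). It was at 28.3, 22.5 and 22.3 CPM in BCLAF1-depleted libraries, against 26.7, 26.0 and 25.7 CPM in controls. BCLAF1-depleted replicate 1 was above all controls and replicates 2 and 3 were below them. The log2 fold change was -0.10 ± 0.13 (edgeR adjusted p = 0.573), and -0.24 without BCLAF1-depleted replicate 1 (adjusted p = 0.0615). The nearest tested genes on the outer sides of the pair did not pass the threshold either: YAP1, a Hippo pathway coactivator, had -0.31 ± 0.18 (adjusted p = 0.202) and TMEM123, a membrane mucin-like gene, -0.37 ± 0.20 (adjusted p = 0.166). Without BCLAF1-depleted replicate 1 both were lower (YAP1 -0.52, adjusted p = 0.0209; TMEM123 -0.68, adjusted p = 0.00136), and without replicate 2 they were at -0.11 and -0.19 (adjusted p = 0.496 and 0.439). These neighbours were picked by position, after the members' values were known.

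The balance of the cIAP transcripts was also compared within each library, where scaling between libraries plays no part. There were 1.99, 2.94 and 3.06 BIRC3 reads per BIRC2 read in BCLAF1-depleted libraries, against 0.818, 0.854 and 0.901 in controls. BIRC3 was thus counted more often than BIRC2 in all 3 BCLAF1-depleted libraries and less often in all 3 controls, with no correction for gene length. The log2 ratio differed by 1.61 between the groups (exact two-sided permutation p = 0.1, the smallest that 3 against 3 allows). This and the later ratios each set a gene called higher over one not called. Their direction follows from those fold changes and is no separate evidence.

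Of the adaptors, TRAF1 alone passed the threshold. TRAF1, which lacks the RING domain of the other TRAF proteins and pairs with TRAF2 and the cIAPs, was at 5.96, 6.31 and 7.40 CPM in BCLAF1-depleted libraries, against 3.55, 4.06 and 3.85 CPM in controls. The groups did not overlap. The means were 6.55 ± 0.751 CPM in BCLAF1-depleted and 3.82 ± 0.254 CPM in control libraries (SD, n = 3 each), a log2 fold change of 0.78 ± 0.16 (edgeR adjusted p = 0.00513). Its call was lost in 2 FPKM settings (adjusted p 0.093 and 0.167). At 209, 215 and 240 reads in BCLAF1-depleted and 157, 180 and 185 in control libraries, it was the least counted of the 7 genes. TRAF1 (ENSG00000056558.9) occupies chromosome 9, 120902393 to 120929173, minus strand.

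TRAF2, the adaptor that carries the cIAPs into the complex (ENSG00000127191.16, chromosome 9, 136881912 to 136926607, plus strand), showed no difference beyond the replicate spread. It was at 32.0, 37.2 and 31.3 CPM in BCLAF1-depleted libraries, against 31.8, 30.3 and 33.4 CPM in controls, with a log2 fold change of 0.07 ± 0.12 (edgeR adjusted p = 0.66). BCLAF1-depleted replicate 2 was above all controls, and the other values of the groups were interleaved. TRAF3, the adaptor that binds NIK itself (ENSG00000131323.13, chromosome 14, 102777476 to 102911500, plus strand), was at 40.9, 34.9 and 46.2 CPM in BCLAF1-depleted libraries, against 36.9, 36.2 and 35.8 CPM in controls. Its BCLAF1-depleted values lay on both sides of the controls, and the log2 fold change was 0.16 ± 0.13 (edgeR adjusted p = 0.333). Scaled by library totals alone, TRAF2 was at -0.15 and TRAF3 at -0.070. That scaling moved the median of all tested genes to -0.21.

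Reads of TRAF1 per read of TRAF2 were 0.186, 0.169 and 0.236 in BCLAF1-depleted libraries, against 0.112, 0.134 and 0.115 in controls. The groups did not overlap, and the log2 ratio differed by 0.71 (exact two-sided permutation p = 0.1, the smallest possible).

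MAP3K14, which codes for NIK, the kinase that the TRAF and cIAP complex holds down, was at 60.1, 61.2 and 68.2 CPM in BCLAF1-depleted libraries, against 39.2, 44.6 and 41.3 CPM in controls. The lowest BCLAF1-depleted library was above the highest control. The means were 63.2 ± 4.41 CPM in BCLAF1-depleted and 41.7 ± 2.69 CPM in control libraries (SD, n = 3 each), a log2 fold change of 0.60 ± 0.12 (edgeR adjusted p = 0.00433). The call was lost with library totals as the only scaling (0.37, adjusted p = 0.0802) and on the deposited FPKM in 3 settings (0.27 to 0.30, adjusted p 0.112 to 0.12), while the direction held. Within libraries there were 1.47, 1.75 and 1.48 MAP3K14 reads per TRAF3 read in BCLAF1-depleted libraries, against 1.06, 1.23 and 1.15 in controls. The groups did not overlap, and the log2 ratio differed by 0.44 (exact two-sided permutation p = 0.1, the smallest possible).

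MAP3K14 (ENSG00000006062.12) occupies chromosome 17, 45263119 to 45317145, minus strand, and 713 of its exon bases (12.3%) are also exon of MAP3K14-AS1 on the opposite strand. MAP3K14-AS1 was at 4.79, 3.37 and 3.76 CPM in BCLAF1-depleted libraries, against 6.70, 9.02 and 10.1 CPM in controls. It was lower in every BCLAF1-depleted library (log2 fold change -1.11 ± 0.20, edgeR adjusted p = 0.00314), the opposite direction to MAP3K14. The sources used here do not give the strand setting of the counting, so reads in the shared bases cannot be told apart. MAP3K14-AS1 was looked up for this overlap, after the members' values were known.

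**Figure D2:**
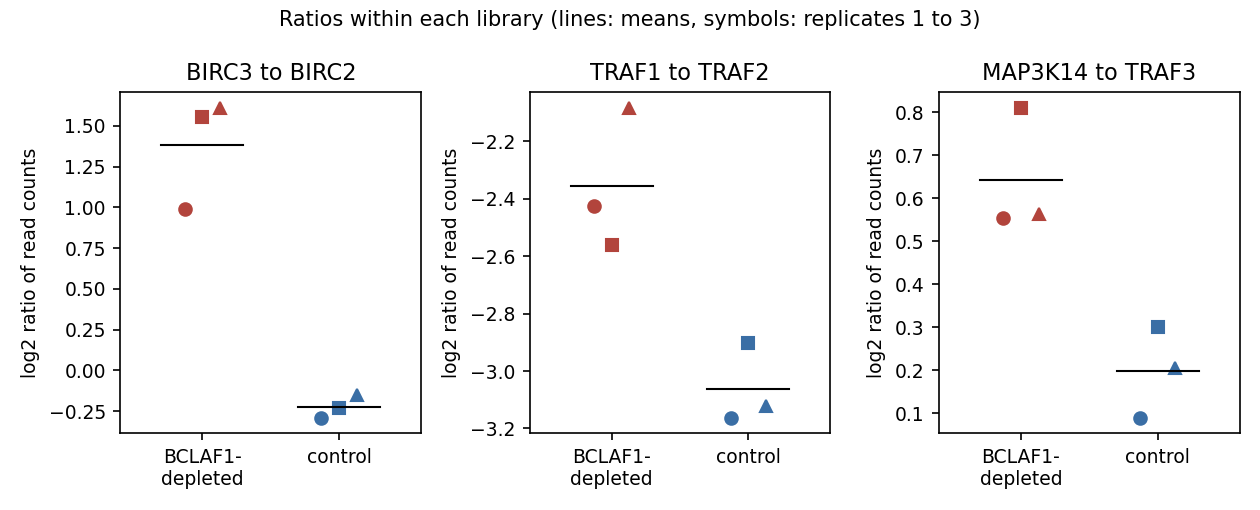
The log2 ratio of read counts of 2 genes in the same library (y axis, not from 0) for BIRC3 to BIRC2, TRAF1 to TRAF2 and MAP3K14 to TRAF3, with a symbol per replicate and a line at the mean of the BCLAF1-depleted and control libraries. All 3 ratios are higher in every BCLAF1-depleted library than in any control, by 1.61, 0.71 and 0.44 on average. Each sets a gene called higher over one not called, so its direction follows from their fold changes.

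CHUK, the IKKα gene and the step below NIK, moved the other way. It was at 23.9, 11.6 and 11.4 CPM in BCLAF1-depleted libraries, against 30.1, 29.2 and 30.3 CPM in controls. All 3 BCLAF1-depleted libraries were below the controls, but replicate 1 was much closer to them than replicates 2 and 3. The means were 15.7 ± 7.16 CPM in BCLAF1-depleted and 29.8 ± 0.611 CPM in control libraries (SD, n = 3 each), a log2 fold change of -0.93 ± 0.25 (edgeR adjusted p = 0.0175). Of all genes tested, 6.56% had a fold change as low or lower. Without BCLAF1-depleted replicate 1 the value was -1.39 (adjusted p = 5.82e-05). The call was lost without BCLAF1-depleted replicate 2 (-0.75, adjusted p = 0.075), BCLAF1-depleted replicate 3 (-0.75, adjusted p = 0.0571) or control replicate 3 (-0.92, adjusted p = 0.057).

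CHUK (ENSG00000213341.9) occupies chromosome 10, 100188298 to 100229619, minus strand. It has 6928 exon bases over all its transcripts, and its longest transcript has 36.3% GC. With the trend of fold changes over length and GC content removed, its log2 fold change was -0.72 (adjusted p = 0.0238), and those of BIRC3, TRAF1 and MAP3K14 were 1.75, 0.84 and 0.64 (adjusted p 4.11e-05 to 0.00281). All 4 calls held with that trend removed. Without BCLAF1-depleted replicate 1, the library set apart on the first component, BIRC3 was at 1.57, TRAF1 at 0.82 and MAP3K14 at 0.61 (adjusted p 3.07e-05 to 0.00196).

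**Figure D3:**
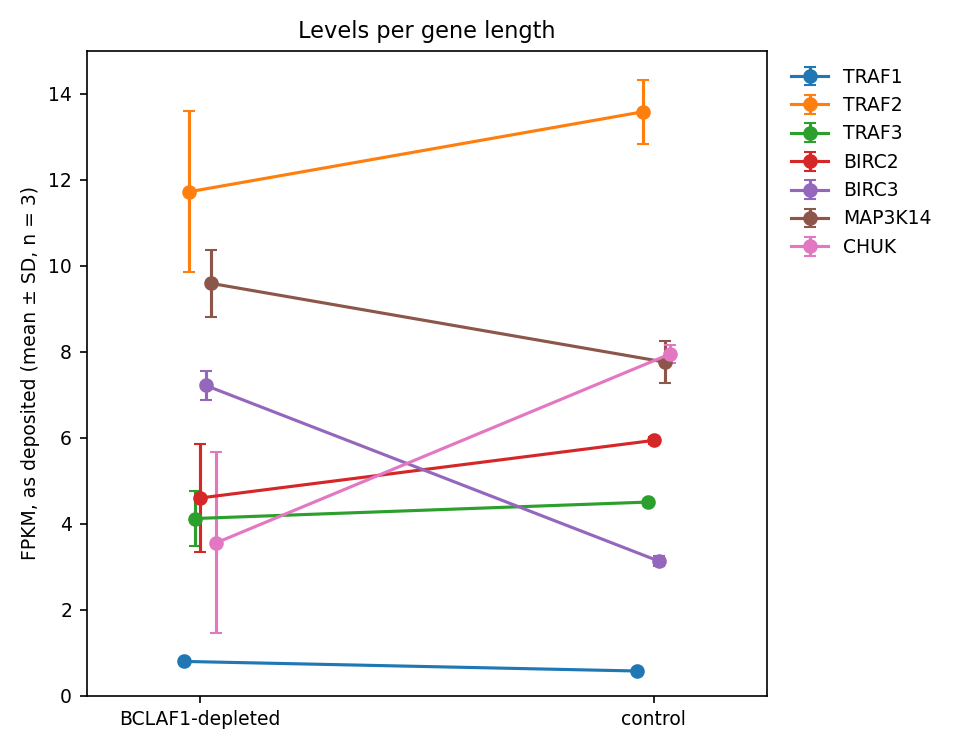
Deposited FPKM of the 7 genes (y axis, from 0; mean ± SD, n = 3) in BCLAF1-depleted and control libraries, to read the order of genes within each group. BIRC3 stands above BIRC2, TRAF3 and CHUK in BCLAF1-depleted libraries and below all 3 in controls, and TRAF1 is lowest in both.

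Levels of different genes were compared per gene length, in the deposited FPKM (fragments per kilobase of gene, scaled for library size), within each group. In BCLAF1-depleted libraries the order was TRAF2 (11.7 ± 1.88 FPKM), MAP3K14 (9.59 ± 0.773), BIRC3 (7.22 ± 0.340), BIRC2 (4.60 ± 1.26), TRAF3 (4.12 ± 0.630), CHUK (3.56 ± 2.11) and TRAF1 (0.797 ± 0.0404 FPKM; SD, n = 3). The ranges overlapped between TRAF2 and MAP3K14, between BIRC2 and TRAF3, and between TRAF3 and CHUK, so their order over the group is not beyond the spread. Within libraries TRAF2 was above MAP3K14 in all 3, while the other pairs changed order. In control libraries the order was TRAF2 (13.6 ± 0.747 FPKM), CHUK (7.95 ± 0.202), MAP3K14 (7.76 ± 0.490), BIRC2 (5.94 ± 0.0896), TRAF3 (4.50 ± 0.0493), BIRC3 (3.13 ± 0.117) and TRAF1 (0.573 ± 0.0404 FPKM; SD, n = 3). Only CHUK and MAP3K14 overlapped there. BIRC2 thus had the higher FPKM of the cIAP pair in every control library, and BIRC3 in every BCLAF1-depleted library.

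TRAF1 and MAP3K14 had nearly the same profile. Over the 6 libraries, Pearson's r of their log2 CPM was 0.997, and of the 10172 genes averaging 5 CPM or more TRAF1 was the gene most like MAP3K14, followed by GTF2H4 (r = 0.995). For TRAF1 the most alike were ALDH3A2 and GTF2H4 (both r = 0.998), with MAP3K14 ranked 3. BIRC3 was most like ANKRD1 and CCND1 (both r = 0.999), and CHUK most like RAVER1 and ZBED5 (both r = 0.999). TRAF2 was most like NAT14 (r = 0.990), TRAF3 most like TAF4B (r = 0.998) and BIRC2 most like TFRC (r = 0.993). These values describe 6 libraries in 2 groups and share the difference between the groups.

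Further genes of the pathway were taken from lists by role. The transcription factor genes of the noncanonical arm had log2 fold changes above those of the 7 genes, except that with the length and GC trend removed NFKB2 (1.68) was below BIRC3 (1.75). NFKB2, which codes for p100, was at 141.7, 157.3 and 149.5 CPM in BCLAF1-depleted libraries, against 45.8, 46.2 and 46.0 CPM in controls (log2 fold change 1.70 ± 0.11, edgeR adjusted p = 1.43e-05). RELB, the gene of the p52 partner, was at 19.0, 21.8 and 17.9 CPM in BCLAF1-depleted libraries, against 3.87, 4.46 and 3.97 CPM in controls (2.25 ± 0.14, edgeR adjusted p = 1.05e-05). Neither gene's groups overlapped, and both calls held under all 19 alternatives tried.

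Of 7 ligand genes, 6 had a row and 4 were tested. Of these 3 rose and 0 fell (75% called), against 17.8% higher and 18% lower among all tested genes. All 3 rest on few reads. TNFSF14, which codes for LIGHT, a ligand of the lymphotoxin-β receptor, had 69, 61 and 90 reads in BCLAF1-depleted libraries, against 28, 21 and 22 in controls (log2 fold change 2.06 ± 0.27, edgeR adjusted p = 0.000707). LTA, the lymphotoxin-α gene, had 9, 13 and 17 reads in BCLAF1-depleted libraries, against 1, 1 and 4 in controls (edgeR adjusted p = 0.00472), too few for a stable fold. LTA passed the filter on low counts only through its BCLAF1-depleted libraries, so its place among the tested genes depended on being higher there. The 75% called counts LTA and is no support for a rise of the ligand genes. TNFSF12, which codes for TWEAK, had 27, 29 and 51 reads in BCLAF1-depleted libraries, against 27, 22 and 22 in controls (1.02 ± 0.34, edgeR adjusted p = 0.0415), and lost its call in 13 of 18 alternatives, among them each fit without 1 library except BCLAF1-depleted replicate 1 (adjusted p 0.0581 to 0.143).

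Of 7 receptor genes 5 were tested, and 1 rose and 0 fell (20% called, against 35.8% of all tested genes). TNFRSF12A, the TWEAK receptor Fn14, was at 174.3, 243.1 and 164.5 CPM in BCLAF1-depleted libraries, against 127.2, 133.9 and 113.8 CPM in controls (log2 fold change 0.63 ± 0.17, edgeR adjusted p = 0.0154). Its call was lost in 8 of 19 alternatives, among them library totals as the only scaling (0.42, adjusted p = 0.113), the length and GC trend removed (0.34, adjusted p = 0.0949), and the fits without control replicate 1 (0.64, adjusted p = 0.0602) or control replicate 3 (0.57, adjusted p = 0.0775). LTBR, the lymphotoxin-β receptor, was at 175.5, 224.2 and 192.1 CPM in BCLAF1-depleted libraries, against 179.0, 185.0 and 158.6 CPM in controls. Its difference was within the spread (0.18 ± 0.14, edgeR adjusted p = 0.331), and the estimate was -0.049 when scaled by library totals alone.

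**Figure D4:**
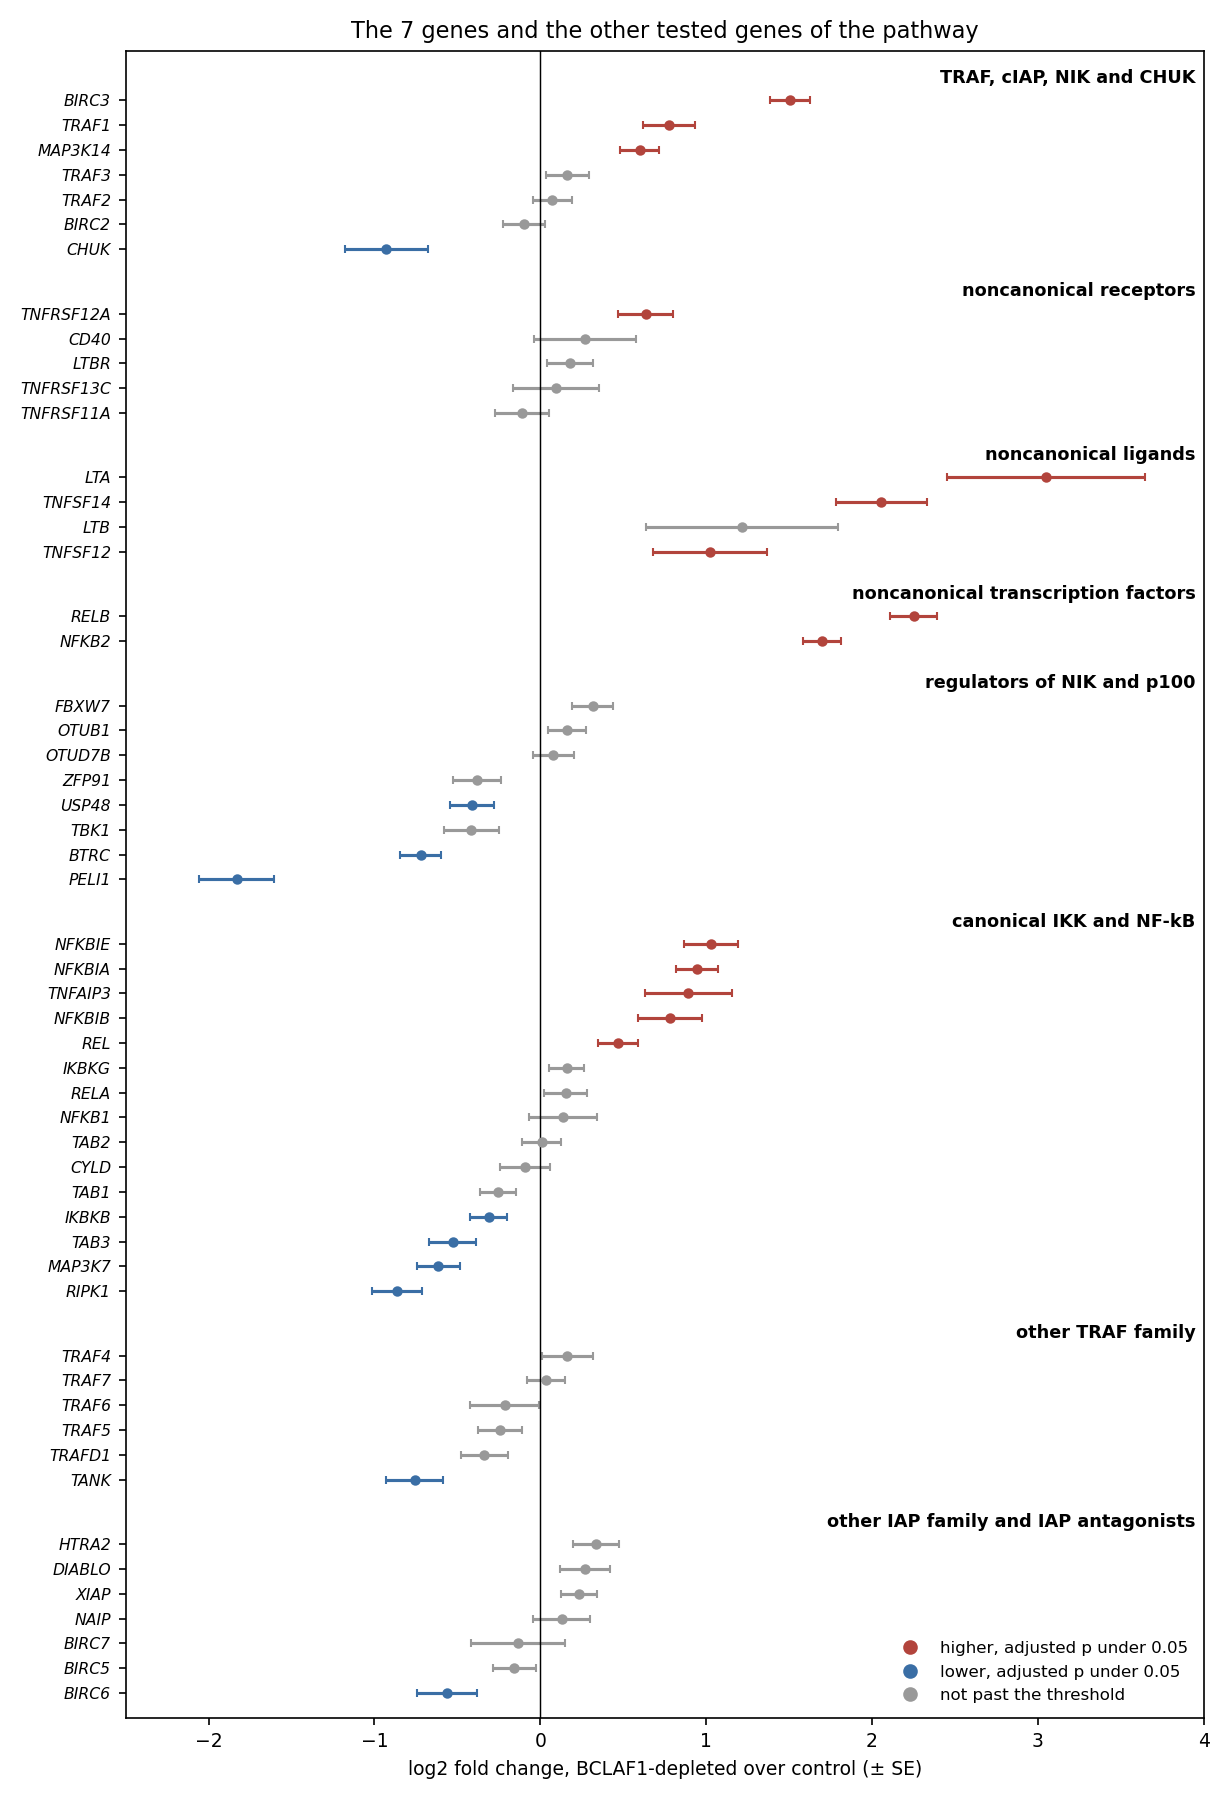
Log2 fold change, BCLAF1-depleted over control (x axis, ± SE), of the 7 genes and the 47 other tested genes of the pathway, grouped by role, with color for the call. On this scale, before any trend removal, NFKB2 and RELB (1.70 and 2.25) lie to the right of all 7 genes, and PELI1 (-1.83) is the lowest of all genes shown.

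Among 8 tested regulators of NIK and p100, 3 fell and 0 rose, with a median log2 fold change of -0.40. That is 37.5% called, against 35.8% of all tested genes (18% lower). PELI1, a ubiquitin ligase reported to act on NIK, was at 3.93, 2.61 and 1.91 CPM in BCLAF1-depleted libraries, against 9.87, 9.74 and 10.6 CPM in controls (log2 fold change -1.83 ± 0.23, edgeR adjusted p = 0.000478). All 3 BCLAF1-depleted values were below the controls. BTRC, which codes for βTrCP, the F-box protein that recognises phosphorylated p100 and IκBα, was at 11.6 ± 1.10 CPM in BCLAF1-depleted and 19.1 ± 0.396 CPM in control libraries (SD, n = 3 each; -0.72 ± 0.12, edgeR adjusted p = 0.00258). The deubiquitinase gene USP48 had a log2 fold change of -0.41 ± 0.13 (edgeR adjusted p = 0.0325), which was -0.19 with the length and GC trend removed (adjusted p = 0.225). USP48 also lost its call without any 1 of the 3 controls (adjusted p 0.0664 to 0.13) or BCLAF1-depleted replicate 2 (adjusted p = 0.0727).

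In the canonical arm, 5 of 15 genes rose and 4 fell, with a median of 0.14, against 17.8% higher and 18% lower among all tested genes. The inhibitor genes NFKBIE (log2 fold change 1.03 ± 0.16), NFKBIA (0.95 ± 0.13) and NFKBIB (0.78 ± 0.19) rose, as did the deubiquitinase gene TNFAIP3 (0.89 ± 0.26) and REL (0.47 ± 0.12), with edgeR adjusted p from 0.000716 to 0.025. NFKBIA was at 120.0, 144.4 and 140.3 CPM in BCLAF1-depleted libraries, against 65.5, 69.1 and 75.4 CPM in controls, with no overlap. The genes that fell code for kinases and an adaptor known to act upstream of the inhibitors: RIPK1 (-0.86 ± 0.15), MAP3K7 (TAK1, -0.61 ± 0.13), its partner TAB3 (-0.53 ± 0.14) and IKBKB (IKKβ, -0.31 ± 0.11), with edgeR adjusted p from 0.00305 to 0.049. NFKBIB, REL, MAP3K7, TAB3 and IKBKB were named after their values were seen, to complete the called genes of the list. REL and TNFAIP3 lost their calls without any 1 of the 3 controls (adjusted p 0.0549 to 0.104) and with library totals alone (0.317 and 0.101), TNFAIP3 also without BCLAF1-depleted replicate 1 (log2 fold change 0.51, adjusted p = 0.0518), and TAB3 without any 1 of the controls (0.0516 to 0.0725). With the length and GC trend removed, TAB3 was at -0.23 (adjusted p = 0.163), IKBKB at -0.16 (0.235), MAP3K7 at -0.36 (0.0299) and RIPK1 at -0.87 (0.00195). NFKBIB lost its call without control replicate 3 (0.0533) or BCLAF1-depleted replicate 2 (0.0506).

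The other subunits of the IKK complex were looked at beside CHUK, after their values were seen. IKBKB, the sister kinase, was at 29.4, 26.2 and 27.6 CPM in BCLAF1-depleted libraries, against 33.5, 34.5 and 35.3 CPM in controls, but its call was lost in 14 of 19 alternatives (adjusted p up to 0.329). IKBKG, the regulatory subunit NEMO, was at 51.4, 51.4 and 54.2 CPM in BCLAF1-depleted libraries, against 46.7, 46.5 and 47.5 CPM in controls, which did not overlap but missed the threshold (log2 fold change 0.16 ± 0.11, edgeR adjusted p = 0.26). IKBKG has a close pseudogene copy, and its estimate was -0.070 when scaled by library totals alone, so its level is uncertain. The differences between the changes of CHUK, IKBKB and IKBKG were not tested.

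Relatives of the adaptors and ligases came last. Of 6 other TRAF family and TRAF-binding genes, 1 fell and 0 rose (median log2 fold change -0.23). That is 16.7% called, against 35.8% of all tested genes (18% lower). The gene that fell was TANK, a TRAF-binding scaffold, at 11.0 ± 2.57 CPM in BCLAF1-depleted and 18.6 ± 1.13 CPM in control libraries (SD, n = 3 each; -0.76 ± 0.17, edgeR adjusted p = 0.00868). TRAF4, TRAF5, TRAF6, TRAF7 and TRAFD1 did not pass the threshold. Of 7 other IAP genes and IAP antagonists (14.3% called, against the same 35.8%), 1 fell and 0 rose (median 0.13). That was BIRC6, a giant ubiquitin-conjugating IAP, at -0.56 ± 0.18 (edgeR adjusted p = 0.036), whose groups overlapped and whose call was lost in 8 of 19 alternatives, among them each fit without 1 library except BCLAF1-depleted replicate 1 (adjusted p 0.0556 to 0.115). With the length and GC trend removed, BIRC6, with 17858 exon bases, was at -0.29 (adjusted p = 0.178). Over all 47 tested pathway genes beside the 7, 11 were higher and 9 lower (42.6% called, against 35.8% of all tested genes), with a median of 0.13. The 11 include LTA, which passed the filter on low counts only through its BCLAF1-depleted libraries.

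**Figure D5:**
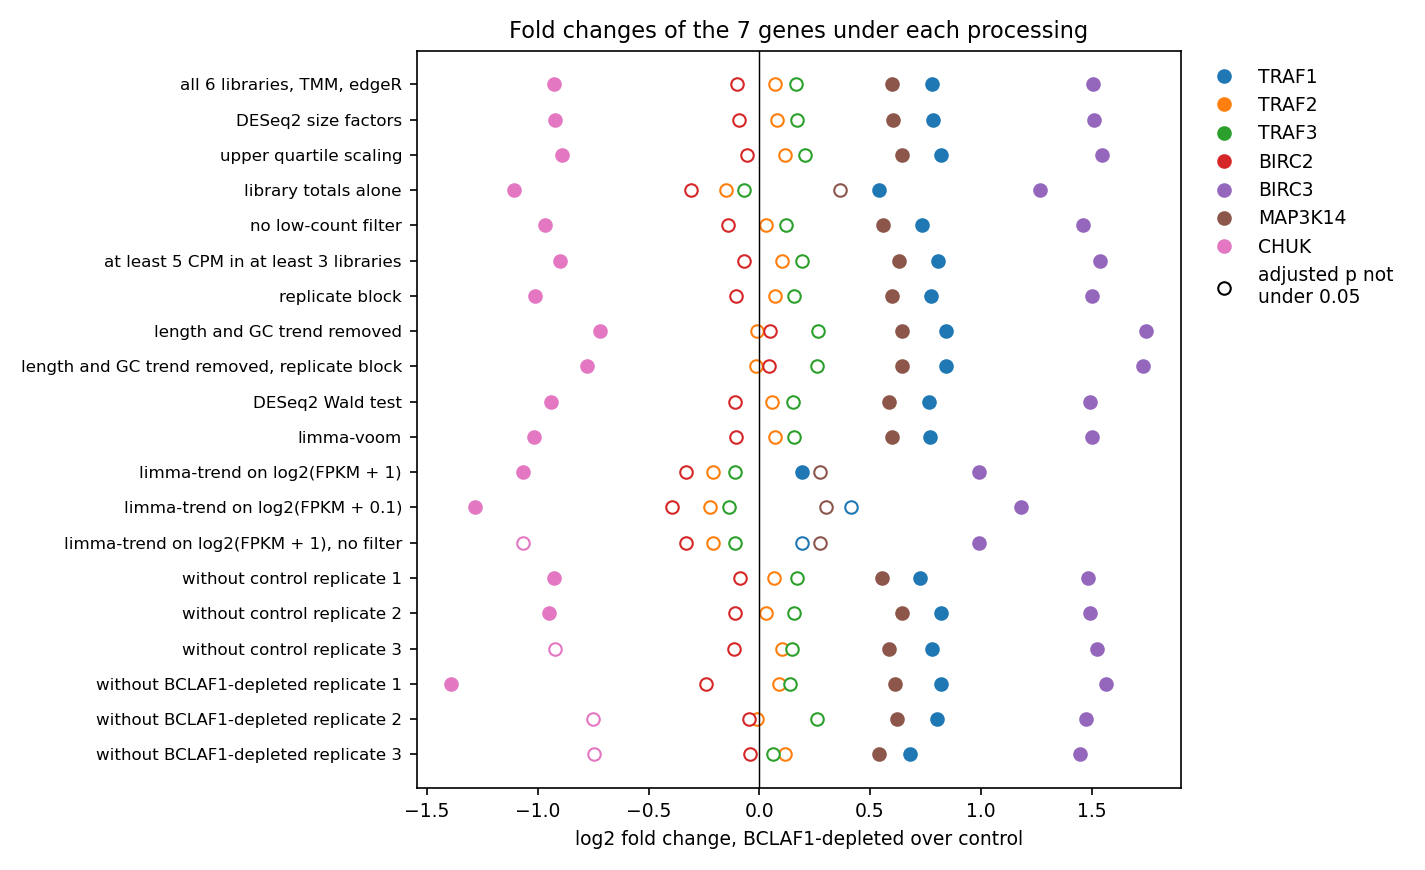
Log2 fold change, BCLAF1-depleted over control (x axis), of the 7 genes under the processing reported here (top) and 19 alternatives, filled where the adjusted p was under 0.05. BIRC3 is filled in every row, TRAF1 in all but 2, MAP3K14 and CHUK in all but 4 each, and TRAF2, TRAF3 and BIRC2 in none.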

How the data were processed

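The deposited table of read counts per gene, not normalized, was tested. The authors also deposited FPKM, fragments scaled for gene length and library size, used here for levels between genes and in alternatives. The build was GRCh38 and the tools included TopHat2, bcl2fastq and edgeR, per the submitters' processing notes. The sources used here do not give versions, the counting tool, annotation release or strand setting. Per the labels' protocols, polyadenylated RNA went into directional libraries. Every count and FPKM column was used, and none was pooled.

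Counts were fitted with edgeR 4.0.16 in R 4.3.3 (glmQLFit, glmQLFTest) on 3 BCLAF1-depleted and 3 control libraries, scaled by TMM, with group as the single term. filterByExpr (min.count 10, min.total.count 15) kept 15907 genes. Benjamini-Hochberg adjustment ran over these, with calls under 0.05. SE is the log2 fold change over the root of F. The common coefficient of variation was 15.3%. The script was tested on simulated data.

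GENCODE 29 gave positions, lengths and GC content, matched by identifier without version for 28362 genes, because the versions differ. The length and GC trend was smoothed per library (mgcv 1.9.3, basis size 8) and used as an offset. Levels most alike were ranked by Pearson's r of log2 CPM with a prior count of 2. Other alternatives were DESeq2 1.42.0, limma 3.58.1 (voom, and trend on log2(FPKM + 1) and log2(FPKM + 0.1)), other scalings and filters (none, or 5 CPM in at least 3 libraries), a replicate block and each library left out.

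The 7 genes and the lists were chosen with earlier results of these data known. Genes named were the 7, BCLAF1, up to 4 called genes per list with the largest change, and the 2 most alike per gene, of which some are left out. Other names were added after values were seen: MAP3K14-AS1, YAP1, TMEM123, LTBR, IKBKG, and the called genes beyond the 4 of the canonical list. The result of 1 further marker list is not reported here.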

Additional observations from a re-analysis of the deposited data

How the results depend on the processing

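The direction held under all 19 alternatives for BIRC3, TRAF1, MAP3K14 and CHUK. BIRC3 was past the threshold in all of them (0.99 to 1.75). TRAF1 was not past it with log2(FPKM + 0.1) (0.41, adjusted p = 0.093) and with log2(FPKM + 1) without a filter (0.19, 0.167), and CHUK not with log2(FPKM + 1) without a filter (-1.07, 0.0731). With log2(FPKM + 0.1), and with log2(FPKM + 1) without a filter, 1 of the 7 genes was called higher, and without a filter 0 were lower. Leaving out a library gave 3 higher in each case and 0 to 1 lower.

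TRAF2 turned to -0.15 with library totals alone, -0.21 with log2(FPKM + 1) with and without a filter, -0.22 with log2(FPKM + 0.1), and to -0.011 and -0.013 with the length and GC trend removed, without and with the replicate block. With a library left out it ranged from -0.0099 (without BCLAF1-depleted replicate 2) to 0.12. TRAF3, IKBKG and LTBR turned with library totals alone (-0.070, -0.070 and -0.049), with log2(FPKM + 1) with and without a filter (-0.11, -0.13 and -0.12) and with log2(FPKM + 0.1) (-0.14, -0.14 and -0.12). BIRC2 turned to 0.048 with the trend removed and 0.045 with the block added. None of these was past the threshold, and the cause was not tested.

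All tested genes called higher numbered 1283 with library totals alone, 1131, 1126 and 574 on FPKM (log2(FPKM + 1), log2(FPKM + 0.1), and log2(FPKM + 1) without a filter), and 1383 to 3741 with a library left out. Those called lower numbered 4453 and 4381 with log2(FPKM + 1) and log2(FPKM + 0.1), and 1549 to 4195 with a library left out. The other pathway genes called higher numbered 7 with library totals alone and with both filtered FPKM fits, 5 without the filter, and 6 to 13 with a library left out. Those called lower numbered 14 with log2(FPKM + 1), and 5 to 13 with a library left out.

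The 3 read ratios kept their direction: 1.49 to 1.81 for BIRC3 to BIRC2, 0.57 to 0.81 for TRAF1 to TRAF2 and 0.36 to 0.50 for MAP3K14 to TRAF3 with a library left out. Replicate numbers were not shown to pair the samples: deviations of same-numbered libraries correlated at 0.036, 0.0466 and 0.119, although each library correlated best with its own number. With the replicate number as a block, 2886 genes were higher and 3121 lower, CHUK was at -1.01 (adjusted p = 0.000704) and IKBKB lost its call (adjusted p = 0.0793). Having 3 libraries per group and an unknown strand setting limits what can be seen, and LTA, TNFSF12 and TNFSF14 rest on few reads.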
